A study of Mus musculus with 6 samples.

Results

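The 10 genes described here mark the deep layers of the mouse neocortex, and their mRNA levels were compared across 6 cortex libraries, 3 from HuD KO mice and 3 from control mice. They are *Tle4*, *Rprm*, *Foxp2*, *Hs3st4*, *Fezf2*, *Bcl11b*, *Crym*, *Ctgf*, *Nxph4* and *Cplx3*, chosen by symbol and found as 10 of the 13299 genes of the expression table. HuD KO mice carry a germline targeted allele in which exon 2 of *Elavl4*, the gene for HuD, is replaced by a neomycin cassette, and the allele is present in all cells. Controls were wildtype littermates, and all mice were adult C57BL/6 males about 3 to 4 months old. RNA was extracted with TRIzol from flash-frozen neocortex and sequenced as paired ends, and every value is an FPKM, the number of fragments scaled by transcript length and by mapped fragments. The study excluded HuD KO replicate 2, so the main comparison was of the other 2 HuD KO libraries with the 3 controls (5 libraries). Values of the excluded library are given too, and every test was repeated over 6 libraries.

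Projection neurons of the deep layers send axons out of the cortex. Corticothalamic neurons of layer 6 project to the thalamus, thick-tufted neurons of layer 5 project to the brainstem and spinal cord, and layer 6b holds neurons that remain from the embryonic subplate. Their identities are set by transcription factors that repress one another, with *Fezf2* and *Bcl11b* on the subcortical side. HuD is a neuronal RNA-binding protein that recognises AU-rich elements in the 3′ untranslated regions of mRNAs and often stabilises its targets. The assay was of whole tissue, so a difference in the number of deep layer neurons and a difference in RNA per neuron cannot be told apart.

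The pentamer ATTTA, with U for T in the mRNA, is the core of AU-rich elements, and it was searched on the transcript strand of the longest 3′ untranslated region that GENCODE vM21 gives each gene. It was present in 8 of the 10 markers, against 75.43% of the 11956 tested genes with such a region of at least 200 bases. The HuD target list of the study draws on immunoprecipitation and pulldown data of mouse forebrain and on immunoprecipitation data of striatum. It includes *Tle4*, *Foxp2* and *Bcl11b*. The list was not made from deep layer neurons alone, and the share of all tested genes on it was not computed. The sites of *Tle4*, the marker with the smallest p-value, and of *Fezf2*, the marker with the densest sites, are shown because AU-rich elements are the sequences HuD is known to bind. Capitals mark the pentamer, and each window runs 5′ to 3′ on the mRNA strand of mm10.
Tle4, base 275 of the 3′ untranslated region: tctgtaatatATTTAttttgtttaa
Tle4, base 420: aaaataactgATTTAaatgtcacta
Tle4, base 1042: ggcttgctttATTTAcctctggttc
Fezf2, base 114: gctaaaatctATTTAtcgaaaccag
Fezf2, base 210: caggaaacgtATTTAaatccagtgc
Fezf2, base 235: gctgaaacatATTTAattccaggcc
*Fezf2* held its 3 sites in 402 bases, or 7.46 per kilobase, a density above that of 98.7% of genes, whose median was 1.44 per kilobase. *Tle4* held 3 in 1584 bases, or 1.89 per kilobase, and *Bcl11b* held 12 in 4997 bases, or 2.40 per kilobase. *Foxp2* had 7, *Rprm* and *Ctgf* 2 each, *Hs3st4* and *Cplx3* 1 each, and *Nxph4* and *Crym* none. A match is a description of the letters and not a measured binding site.

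Promoter sequences were taken from RefSeq (GRCm38.p6), as the 250 bases before and 50 after a transcription start, and 6 of the 10 markers matched (*Tle4*, *Rprm*, *Hs3st4*, *Fezf2*, *Bcl11b* and *Cplx3*). *Tle4* has 2 starts there, and the upstream one is shown. The windows of the 3 layer 6 genes below whose HuD KO libraries lay apart from controls over the 5 libraries are shown, with every CCAAT and GGGCGG in capitals on either strand (ATTGG and CCGCCC are their reverse complements).
Tle4, chr19:14598134-14598433, minus strand: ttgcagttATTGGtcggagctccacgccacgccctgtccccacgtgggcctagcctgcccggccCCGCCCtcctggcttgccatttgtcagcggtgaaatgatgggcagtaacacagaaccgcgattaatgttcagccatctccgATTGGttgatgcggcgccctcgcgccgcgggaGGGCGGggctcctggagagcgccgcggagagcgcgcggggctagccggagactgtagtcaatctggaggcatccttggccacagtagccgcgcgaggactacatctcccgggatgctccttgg
Rprm, chr2:54085503-54085802, minus strand: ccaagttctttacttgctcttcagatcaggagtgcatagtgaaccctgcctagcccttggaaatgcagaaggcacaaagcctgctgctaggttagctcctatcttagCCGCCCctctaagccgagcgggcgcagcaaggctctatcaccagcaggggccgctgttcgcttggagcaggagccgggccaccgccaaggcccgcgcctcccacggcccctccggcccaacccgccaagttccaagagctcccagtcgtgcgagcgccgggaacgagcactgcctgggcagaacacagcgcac
Hs3st4, chr7:123982578-123982877, plus strand: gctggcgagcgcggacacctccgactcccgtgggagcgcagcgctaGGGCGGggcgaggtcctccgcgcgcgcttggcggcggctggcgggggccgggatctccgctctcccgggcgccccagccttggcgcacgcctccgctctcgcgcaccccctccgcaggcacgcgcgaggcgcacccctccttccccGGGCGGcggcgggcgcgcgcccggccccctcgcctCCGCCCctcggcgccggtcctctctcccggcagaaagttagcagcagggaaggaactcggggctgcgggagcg
GGGCGG, the core of the GC box, was in 35.66% of the 32851 promoters of this length, and CCAAT was in 37.41%. The window of *Tle4* shown held both motifs, and those of *Rprm* and *Hs3st4* held GGGCGG only of the pair. Neither TATAAA (13.62% of promoters) nor GGTGTGA, the core of a T-box site (3.98%), was found in these 3 windows. At the other start of *Tle4* the window held GGGCGG and no CCAAT.

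Several libraries stood apart. *Elavl4* itself was at 1.70, 1.07 and 1.52 FPKM in HuD KO replicates 1, 2 and 3, against 34.2, 30.4 and 28.3 FPKM in controls, which fits every genotype label (log2 fold change -3.61, adjusted p = 0.000687, limma). HuD KO replicate 2 differed from the other 5 libraries by a median of 0.247 per gene on the log2 scale, and the others by 0.0932 to 0.169. Its level relative to the other libraries went with transcript length. Its median was 0.11 over genes whose transcripts are at most 1974 bases long and -0.08 over those of 4682 bases or more. Control replicate 3 ran the other way, with -0.01 and 0.09. So did HuD KO replicate 1, which is in the main comparison, with -0.06 and 0.05. HuD KO replicate 3 had -0.01 and -0.05. The part of this in the marker values was not tested. Hypothalamic markers summed to 263.0 FPKM in control replicate 3 and to between 1.17 and 2.87 FPKM in the other 5 libraries, with 5 of the 6 genes at 0 in at least 1 library. Choroid plexus markers summed to 161.4, 6.13 and 88.8 FPKM in HuD KOs, against 3.23, 2.92 and 298.2 FPKM in controls.

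None of the 10 deep layer markers passed an adjusted p of 0.05 in the limma fit, in which 6 of 13121 genes did (0.0457%). By their levels, 8 of the 10 were higher in HuD KOs, against 44.5% of all genes tested, with a median log2 fold change of 0.42 for the markers and -0.02 for all genes. In 5 markers (*Tle4*, *Rprm*, *Hs3st4*, *Fezf2* and *Ctgf*) both HuD KO libraries lay above all 3 controls, which 8.2% of genes did. No marker had both HuD KO libraries below all controls, which 11.0% of genes had. The adjusted p was 0.514 for *Tle4* and 0.995 for the other 9. At an unadjusted p under 0.05 in limma 4 markers were higher (1.62% of genes) and 0 were lower (1.81%).

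With HuD KO replicate 2 included, 0 of 10 markers passed, and 4 of 13114 genes did (0.0305%). Again 8 markers were higher in HuD KOs, against 47.6% of genes, with a median log2 fold change of 0.29 (-0.01 over all genes). Only *Rprm* and *Hs3st4* of the 10 kept all HuD KO libraries above all controls (4.43% of genes), and none had them all below (5.7%). These 2 were also the markers higher at an unadjusted limma p under 0.05 (1.63% of genes), and 0 were lower (1.85%). The markers were chosen with such results in view, so their counts are a description and no test of the list was made.

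**Figure D1:**
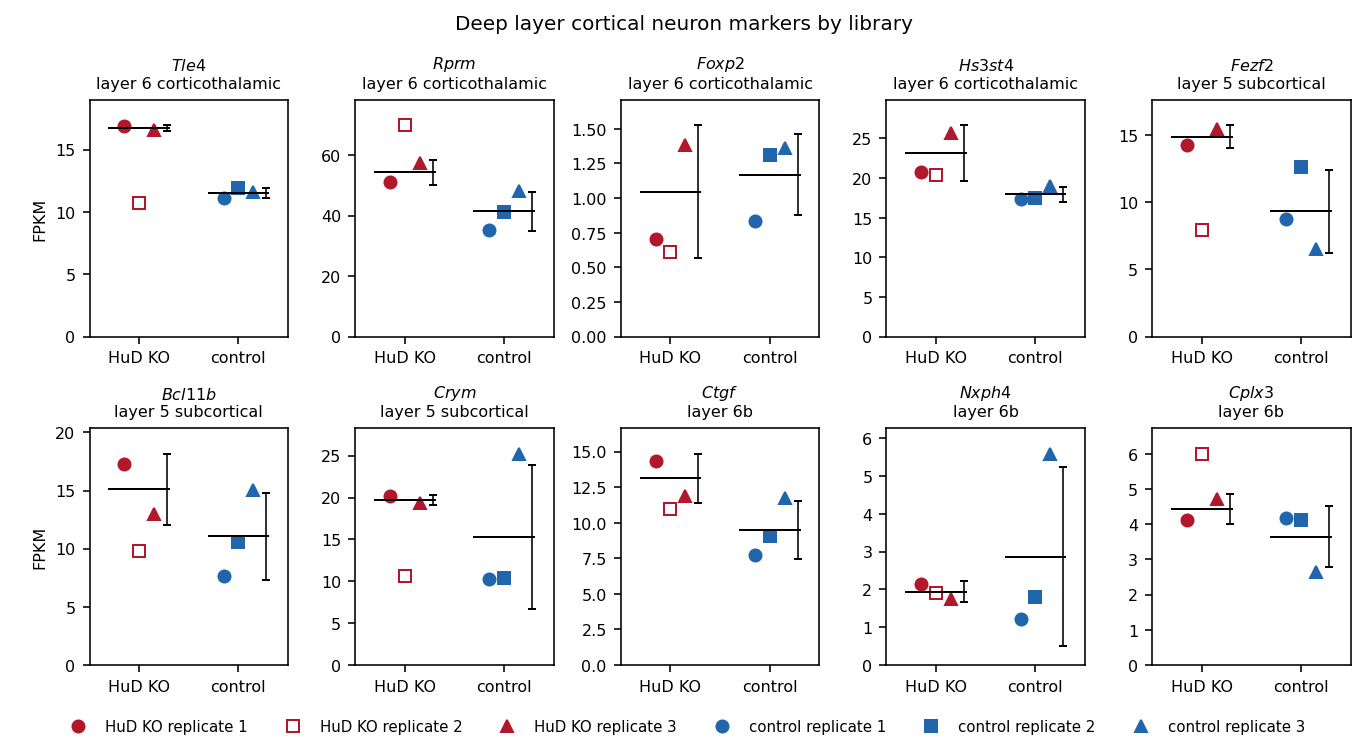
FPKM of each deep layer marker (vertical axis, from 0) in every library, by genotype. Lines and bars are the mean and SD of HuD KO replicates 1 and 3 and of the 3 controls, and the open square is HuD KO replicate 2, which is left out of them. *Tle4* in HuD KO replicates 1 and 3 stood near 17 FPKM, above all controls, while HuD KO replicate 2 lay below them.

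*Tle4* encodes a corepressor of the Groucho family that is active in corticothalamic neurons (ENSMUSG00000024642.16, mm10 chr19:14448072-14598051, minus strand). Its level was 16.9, 10.7 and 16.6 FPKM in HuD KO replicates 1, 2 and 3, against 11.1, 11.9 and 11.6 FPKM in control replicates 1, 2 and 3. The first and the last of these HuD KO libraries lay above every control, and HuD KO replicate 2 below every control. Over 5 libraries the means were 16.7 ± 0.223 FPKM in HuD KOs (SD, n = 2) and 11.5 ± 0.419 FPKM in controls (SD, n = 3). The log2 fold change of FPKM + 1 was 0.50 ± 0.08 (SE), with a 95% interval of 0.31 to 0.69. Its unadjusted limma p of 0.000759 was the smallest of the 10, and the adjusted p was 0.514. The two-sided exact permutation p was 0.2, the smallest that 2 against 3 libraries can give. With HuD KO replicate 2 the log2 fold change was 0.30, with an interval of -0.11 to 0.71 that spans 0.

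*Rprm* encodes Reprimo, an inhibitor of cell cycle progression induced by p53, and in the cortex it marks layer 6 (ENSMUSG00000075334.2, mm10 chr2:54084093-54085552, minus strand, 1 exon). It was at 51.2, 69.8 and 57.3 FPKM in HuD KO replicates 1, 2 and 3, against 35.2, 41.0 and 48.1 FPKM in controls. All 3 HuD KO libraries were above all 3 controls, and HuD KO replicate 2 was the highest. Its log2 fold change was 0.39 ± 0.14 (SE) over 5 libraries (adjusted p = 0.995, limma). Over 6 libraries it was 0.51, with an interval of 0.13 to 0.89 (adjusted p = 0.871, limma). The exact permutation p was 0.2 over 5 libraries and 0.1 over 6, in each case the smallest possible.

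*Hs3st4* encodes a heparan sulfate 3-O-sulfotransferase, an enzyme that modifies sugar chains at the cell surface (ENSMUSG00000078591.1, mm10 chr7:123982869-124398989, plus strand, 2 exons). Its level was 20.7, 20.3 and 25.6 FPKM in HuD KO replicates 1, 2 and 3, against 17.3, 17.5 and 19.0 FPKM in controls. The genotypes did not overlap, and the gap was narrow, since HuD KO replicate 2 stood 1 to 2 FPKM above the highest control. It had a log2 fold change of 0.35 ± 0.11 (SE) over 5 libraries (adjusted p = 0.995, limma) and of 0.29 over 6 (adjusted p = 0.871, limma). As for *Rprm*, the exact permutation p was the smallest possible, 0.2 over 5 libraries and 0.1 over 6. Without HuD KO replicate 3 the log2 fold change was 0.20. Among the markers *Hs3st4* had the smallest ratio of highest to lowest library, 1.48 over all 6.

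*Foxp2* encodes a forkhead transcription factor of layer 6 neurons that is also made in the striatum (ENSMUSG00000029563.16, mm10 chr6:14901349-15441977, plus strand). Its values were 0.708, 0.610 and 1.39 FPKM in HuD KO replicates 1, 2 and 3, against 0.836, 1.31 and 1.36 FPKM in controls. HuD KO values reached below and above those of all controls, and the log2 fold change of -0.10 had an interval of -0.58 to 0.39. It was the lowest of the 10 markers, and on the log2 scale of FPKM + 1 a given ratio counts for less at such a level.

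*Fezf2* encodes the zinc finger factor that specifies subcortical projection neurons (ENSMUSG00000021743.6, mm10 chr14:12342094-12348189, minus strand, 4 exons). It was at 14.3, 7.89 and 15.5 FPKM in HuD KO replicates 1, 2 and 3, against 8.77, 12.6 and 6.54 FPKM in controls. The 2 highest libraries were HuD KO replicates 1 and 3, and HuD KO replicate 2 lay among the controls. Over 5 libraries the log2 fold change, 0.66 ± 0.25 (SE), was larger than that of any other marker (adjusted p = 0.995, limma), and the exact permutation p was 0.2, the smallest possible. With HuD KO replicate 2 included it was 0.38, with an interval of -0.30 to 1.07.

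*Bcl11b* encodes CTIP2, a zinc finger factor of corticospinal neurons that striatal projection neurons also make (ENSMUSG00000048251.15, mm10 chr12:107910403-108003602, minus strand, 4 exons). It was at 17.3, 9.78 and 13.0 FPKM in HuD KO replicates 1, 2 and 3, against 7.63, 10.5 and 15.0 FPKM in controls. Control replicate 3 lay between HuD KO replicates 1 and 3, and the log2 fold change of 0.45 had an interval of -0.23 to 1.14 (adjusted p = 0.995, limma). It was 0.26 without HuD KO replicate 1, 0.23 without control replicate 1 and 0.68 without control replicate 3.

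*Crym* encodes mu-crystallin, a cytosolic thyroid hormone-binding protein present in deep layers and in striatum (ENSMUSG00000030905.5, mm10 chr7:120186380-120202111, minus strand, 8 exons). Its values were 20.2, 10.6 and 19.3 FPKM in HuD KO replicates 1, 2 and 3, against 10.2, 10.3 and 25.3 FPKM in controls. The 6 libraries lay at 2 levels that did not follow genotype, one between 10 and 11 FPKM and one of 19 FPKM or more. Over 5 libraries the log2 fold change was 0.47, with an interval of -0.50 to 1.44. It was 0.27 without control replicate 1 and also without control replicate 2. Without control replicate 3 it was 0.88, with an adjusted p of 0.0509 in limma, which misses the threshold, and over the 20 alternatives that adjusted p was between 0.0509 and 1.00.

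*Ctgf*, also called *Ccn2*, encodes a secreted matricellular protein and is a classical label of layer 6b (ENSMUSG00000019997.11, mm10 chr10:24595442-24598683, plus strand, 4 exons). It had 14.4, 11.0 and 11.9 FPKM in HuD KO replicates 1, 2 and 3, against 7.71, 9.04 and 11.7 FPKM in controls. Both libraries of the main comparison were above every control, though HuD KO replicate 3 (11.9 FPKM) hardly exceeded control replicate 3 (11.7 FPKM). Its log2 fold change was 0.44, with an interval of -0.01 to 0.89 (adjusted p = 0.995, limma). The exact permutation p was 0.2, the smallest possible.

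*Nxph4* encodes a secreted neurexophilin of layer 6b (ENSMUSG00000040258.6, mm10 chr10:127525473-127534559, minus strand, 2 exons). The 3 HuD KO libraries had 2.14, 1.91 and 1.74 FPKM, against 1.21, 1.80 and 5.59 FPKM in controls. Control replicate 3 was the highest of all libraries and 4.63 times control replicate 1, the widest spread of any marker. The log2 fold change of -0.23 (interval -1.38 to 0.92) was 0.24 without that library, so its sign rested on control replicate 3.

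*Cplx3* encodes a complexin, a regulator of SNARE-driven vesicle fusion, and marks layer 6b in the cortex (ENSMUSG00000039714.9, mm10 chr9:57599992-57606281, minus strand, 3 exons). Its values were 4.13, 6.01 and 4.73 FPKM in HuD KO replicates 1, 2 and 3, against 4.16, 4.12 and 2.65 FPKM in controls. HuD KO replicate 1 lay within the range of the controls, and the log2 fold change was 0.24 (interval -0.21 to 0.69). Unlike *Ctgf* and *Nxph4*, *Cplx3* had its lowest level in control replicate 3, and without that library its log2 fold change was 0.08, and without HuD KO replicate 3 it was 0.16.

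**Figure D2:**
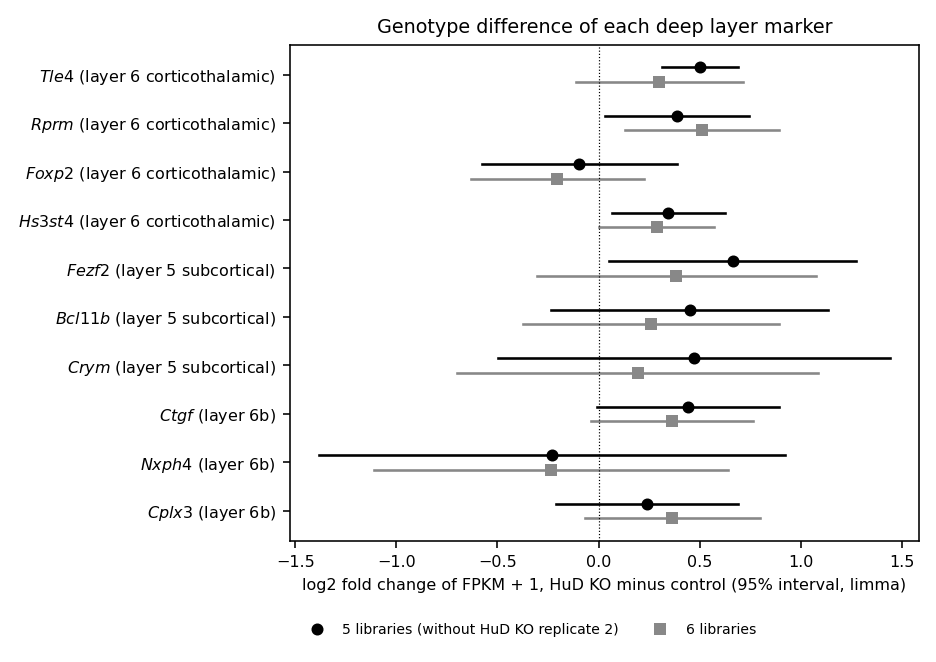
Log2 fold change of FPKM + 1, HuD KO minus control (horizontal axis), with 95% intervals from limma, for each marker. Black circles are the 5 libraries without HuD KO replicate 2 and grey squares all 6 libraries. Over 5 libraries the intervals of *Tle4*, *Rprm*, *Hs3st4* and *Fezf2* lay above 0, and over 6 those of *Rprm* and *Hs3st4* did.

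By the layer of the marker, the median log2 fold change over 5 libraries was 0.37 for the 4 corticothalamic genes of layer 6, 0.47 for the 3 subcortical genes of layer 5 and 0.24 for the 3 genes of layer 6b. Over 6 libraries these medians were 0.29, 0.26 and 0.36, so the order of the 3 groups depended on HuD KO replicate 2. The log2 level of that library minus the mean of HuD KO replicates 1 and 3 was -0.84 for *Crym*, -0.83 for *Fezf2*, -0.60 for *Tle4* and -0.57 for *Bcl11b*, but 0.36 for *Rprm* and 0.37 for *Cplx3*.

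The level of the markers per unit of transcript length, as mean FPKM over 6 libraries, was highest for *Rprm* (50.4), followed by *Hs3st4* (20.1), *Crym* (16.0), *Tle4* (13.1), *Bcl11b* (12.2), *Ctgf* (10.9), *Fezf2* (10.9), *Cplx3* (4.30), *Nxph4* (2.40) and *Foxp2* (1.04). The libraries of *Rprm* did not overlap those of *Hs3st4*, nor those of *Fezf2* the ones of *Cplx3*. All other neighbours in this order overlapped between libraries.

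Libraries of 1 genotype also differed in the markers as a group. Summed over the 10 genes, FPKM was 161.9, 148.7 and 166.9 in HuD KO replicates 1, 2 and 3, against 104.1, 120.2 and 146.9 in controls. The largest single part of each sum was *Rprm*, with 51.2, 69.8 and 57.3 FPKM in HuD KOs and 35.2, 41.0 and 48.1 FPKM in controls. Control replicate 1 was the lowest library for 6 of the 10 markers and the highest for none. In contrast, HuD KO replicates 1 and 3 were the highest for 3 markers each and the lowest for none. Relative to the mean of the 6 libraries, the median of the markers was 0.21, -0.19 and 0.23 on the log2 scale in HuD KO replicates 1, 2 and 3, against -0.33, -0.16 and 0.04 in controls. With HuD KO replicate 2 below control replicates 2 and 3 in this median, the genotypes overlapped.

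The markers did not share 1 profile over the libraries. The root mean square distance of a marker's centred log2 profile from their mean profile ranged from 0.115 for *Ctgf* and 0.129 for *Hs3st4* to 0.382 for *Fezf2* and 0.441 for *Nxph4*. The median distance from it over 7229 other genes with a mean of 5 FPKM or more was 0.253. *Foxp2*, *Rprm*, *Crym*, *Cplx3*, *Fezf2* and *Nxph4* lay farther from the markers' mean profile than this median. Each marker is part of that mean profile, which lowers its own distance, and *Cplx3*, *Nxph4* and *Foxp2* averaged below 5 FPKM. The distances of markers and of other genes are therefore not on equal terms. Among other genes whose mean was 5 FPKM or more, those nearest to that mean profile over the 6 libraries were *Cacng8* (0.0577), *Rab28* (0.0729), *Sox10* (0.0770), *Rbmx* (0.0803) and *Arpc5* (0.0820). Their log2 fold changes ran between 0.15 and 0.39, and none passed the adjusted threshold.

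**Figure D3:**
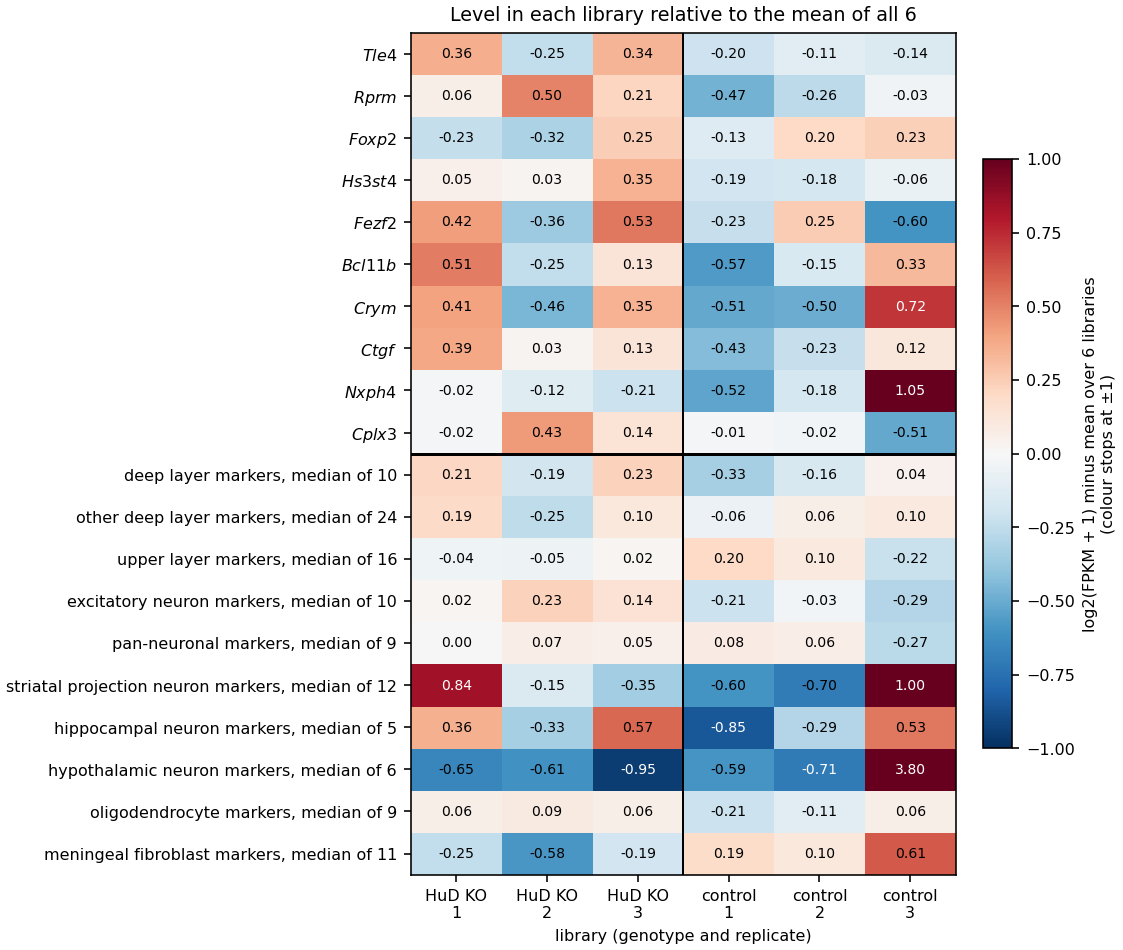
Log2(FPKM + 1) in each library minus its mean over 6 libraries, for each deep layer marker (upper rows) and as the median of marker lists (lower rows). Red is above and blue below the mean. Control replicate 3 stood at 3.80 for hypothalamic and 1.00 for striatal markers, and the deep layer median was between -0.33 and 0.23 in all libraries.

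Striatal projection neuron markers bear on *Bcl11b*, *Crym* and *Foxp2*, which striatal neurons make as well. All 12 had a log2 fold change above 0 over 5 libraries (median 0.36, 0 passing) and 10 of 12 over 6 (median 0.21), and none was at 0 in any library. The sign of this median rested on HuD KO replicate 1, without which it was -0.27, and it was 1.01 without HuD KO replicate 3, 0.81 without control replicate 3 and 0.16 without either control replicate 1 or 2. Their sum was 253.9, 150.0 and 90.7 FPKM in HuD KO replicates 1, 2 and 3, against 78.3, 74.9 and 263.4 FPKM in controls. *Bcl11b* was highest in the 2 libraries with the most striatal RNA, 17.3 FPKM in HuD KO replicate 1 and 15.0 FPKM in control replicate 3. *Crym* was also high in both, but it was at 19.3 FPKM in HuD KO replicate 3, whose striatal sum was near those of control replicates 1 and 2. *Tle4* and *Fezf2* were not high in control replicate 3 (11.6 and 6.54 FPKM). The part of striatal RNA in these differences was not tested.

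A comparison chosen after seeing the data was of the 4 libraries of lower striatal level. These were HuD KO replicates 2 and 3 and control replicates 1 and 2. Striatal sums were still higher in these HuD KOs (150.0 and 90.7 FPKM) than in these controls (78.3 and 74.9 FPKM). The median log2 fold change of the markers was 0.30 in this comparison, and 0 passed. *Rprm* had 0.72 (63.5 FPKM in HuD KOs and 38.1 FPKM in controls) and *Ctgf* 0.41, both at an unadjusted limma p under 0.05. In that comparison 2.46% of all genes were at such a p in either direction. *Tle4* had 0.20 and *Fezf2* 0.07, with HuD KO replicate 2 as 1 of the pair. With only control replicate 3 left out of the 5 libraries, 7 markers were at an unadjusted limma p under 0.05 and higher in HuD KOs, with 6.27% of all genes at such a p in either direction.

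**Figure D4:**
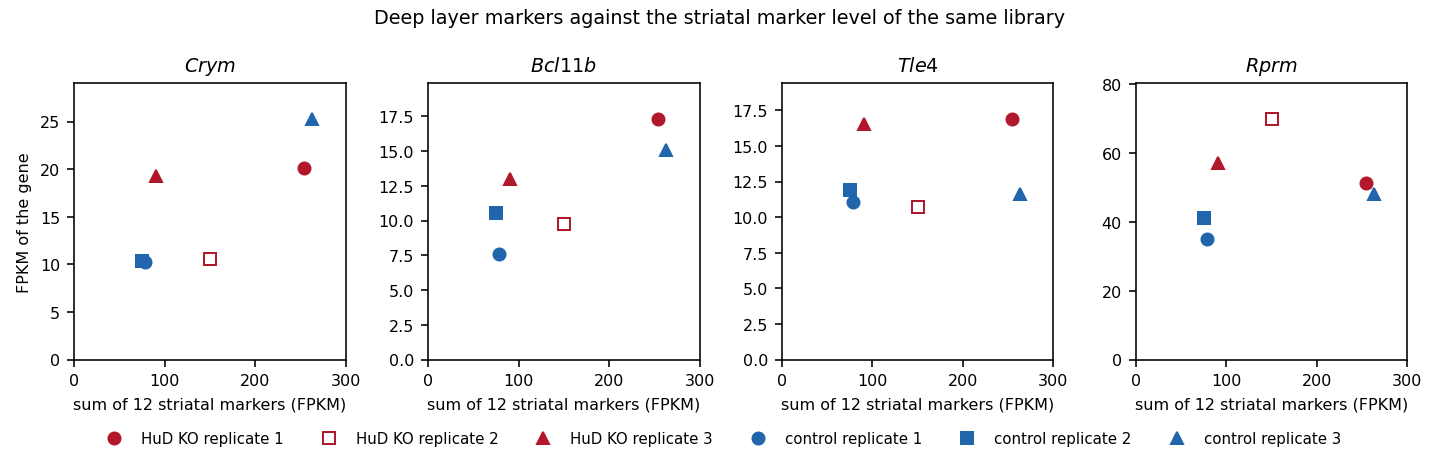
FPKM of *Crym*, *Bcl11b*, *Tle4* and *Rprm* (vertical axes, from 0) against the summed FPKM of 12 striatal markers in the same library (horizontal axis). Each point is 1 library. HuD KO replicate 1 and control replicate 3 lie to the right, above 250 FPKM, where *Crym* and *Bcl11b* are high. *Rprm* is at 51.2 and 48.1 FPKM there, below HuD KO replicates 2 and 3 and above control replicates 1 and 2.

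Other genes of the deep layers, 24 besides the 10, gave 18 with a log2 fold change above 0 over 5 libraries (median 0.19) and 13 over 6 (median 0.04), and 0 passed. *Ldb2*, a LIM-domain cofactor gene of layer 5 neurons, was at 23.3, 9.39 and 23.7 FPKM in HuD KO replicates 1, 2 and 3, against 16.0, 15.6 and 15.0 FPKM in controls. Like *Tle4*, it was above all controls in HuD KO replicates 1 and 3 and below all of them in HuD KO replicate 2 (log2 fold change 0.57, adjusted p = 0.277, limma). *Zfpm2*, a cofactor of GATA factors, and *Fam84b* had 0.53 and 0.56, and *Npr3*, a natriuretic peptide receptor gene, had -0.32, all at an adjusted p of 0.995. Among 14 regulators of projection neuron identity 11 were above 0 (median 0.18, and 0.20 over 6 libraries), with *Nfib* at 0.28, and 0 passed. The median of these regulators was 0.03 without control replicate 3 and 0.29 without control replicate 2.

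Of 18 paralogs of the markers, 8 were above 0 over 5 libraries (median -0.01) and 11 over 6 (median 0.06), and 0 passed. *Nxph3*, a neurexophilin paralog of *Nxph4*, was at 16.0, 16.2 and 19.7 FPKM in HuD KO replicates 1, 2 and 3, against 11.3, 13.1 and 10.3 FPKM in controls, a log2 fold change of 0.59 (adjusted p = 0.995, limma). *Rprml*, the paralog of *Rprm*, had 0.38, while *Foxp4* had -0.45 and *Hs3st1*, which encodes another heparan sulfate 3-O-sulfotransferase, had -0.40. Over 6 libraries these were 0.67, -0.28 and -0.40. In HuD KO replicate 2 *Foxp4* was at 7.68 FPKM, above every control (6.78, 7.58 and 7.62 FPKM).

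Markers of the upper layers were split, with 8 of 16 above 0 (median -0.03, and -0.02 over 6 libraries), and the netrin receptor gene *Unc5d* had -0.49 (adjusted p = 0.995, limma). The upper layer median was -0.14 without control replicate 3 and 0.04 without control replicate 1. General markers of excitatory neurons were higher in 9 of 10 (median 0.28, and 0.49 over 6 libraries), with *Nrn1* at 0.91 and *Neurod6* at 0.84. Over 6 libraries *Nrn1* had 0.61 and *Neurod6* 0.51, and in both genes HuD KO replicate 2 lay within the range of the controls. With 1 of the 5 libraries left out, the excitatory median ranged from 0.17 without control replicate 3 to 0.43 without control replicate 2. Pan-neuronal markers were above 0 in 7 of 9 (median 0.05) and interneuron markers in 4 of 11 (median -0.06). The pan-neuronal median was -0.02 without control replicate 3 and 0.16 without control replicate 1. None of these genes passed, and no difference between the deep layer markers and another list was tested.

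Other cell types of the dissected tissue were measured by their own markers. Over 5 libraries, where 44.5% of all genes were above 0, meningeal fibroblast markers were below 0 in 11 of 11 (median -0.47, 0 passing). At an unadjusted limma p under 0.05, 7 of them were lower (1.81% of all genes). Over 6 libraries 11 of 11 were below 0 (median -0.64), and 8 were at such a p (1.85% of all genes lower). Their sums were 220.7, 128.0 and 248.7 FPKM in HuD KO replicates 1, 2 and 3, against 346.8, 298.6 and 466.1 FPKM in controls. Oligodendrocyte markers were above 0 in 9 of 9 (median 0.14) and hippocampal neuron markers in 4 of 5 (median 0.55), with 0 passing in either. Over 6 libraries their medians were 0.21 and 0.18. Medians over 5 libraries were -0.10 for astrocyte, -0.14 for microglia, -0.12 for endothelial, -0.08 for pericyte and smooth muscle, -0.03 for thalamic, -1.68 for hypothalamic and 0.09 for choroid plexus markers. The hypothalamic median was 0.08 without control replicate 3. That of the choroid plexus was -0.16 over 6 libraries and ranged from -0.24 without control replicate 1 to 0.72 without control replicate 3. Control replicate 1, the lowest in summed deep layer markers, was also the lowest of the 6 in summed oligodendrocyte and hippocampal markers (417.3 and 7.51 FPKM). How much of the deep layer difference goes with the tissue in each dissection was not tested.

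For 3 markers the values may include other transcripts. *Ctgf* overlaps an annotated transcript on the other strand, *Foxp2* a miRNA gene, and *Hs3st4* 2 small or intronic RNAs and 1 antisense gene. The libraries kept strand by dUTP, but no source used here says whether strand entered the computation of FPKM.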

How the data were processed

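RNA-seq of 3 HuD KO and 3 control cortex libraries was analysed from 1 table of 13299 genes. The submitters' processing notes name FastQC 0.11.5 for quality, cutadapt and Trimmomatic for trimming, and STAR 2.7.3a with mm10 for alignment. Values are FPKM as the authors deposited them, and the program behind them is not given in sources used here. A line of sums that names no gene was left out. The authors' own fold changes, p-values and q-values in the table were not used, nor was a second table of the same values for 5 libraries. Depth is unknown, since no counts are given, so no counting interval or detection limit is stated.

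Genes averaging 0.5 FPKM or more in the libraries compared, which all 10 markers did, entered a limma fit (version 3.58.1, R 4.3.3) of log2(FPKM + 1) (eBayes with a trend, genotype as the only term), with Benjamini-Hochberg adjustment over all genes and a threshold of 0.05. A fold change on this scale understates the change of low genes. Python 3.11.15 with pandas 2.3.3, NumPy 2.4.6 and SciPy 1.17.1 gave the exact permutation tests, and matplotlib 3.10.9 the figures. Scripts were tested on simulated data. Each library is from the cortex of 1 mouse, so the spread behind the p-values is between animals and their dissections. The limma fit also draws the variance of each gene towards a trend over all genes. With 2 HuD KO libraries left after an outlier was excluded, the main p-values measure the spread among HuD KO animals poorly. For *Tle4* the HuD KO SD was 0.223 FPKM without HuD KO replicate 2 and 3.48 FPKM with it. The members and the 18 other lists were chosen with earlier results of these data known. Named besides the members are *Elavl4*, up to 4 genes of each list by smallest p and the 5 nearest profiles. The 20 alternatives were 6 libraries, another pseudocount or filter, median or quantile scaling, no variance trend, replicate blocks, leaving out each library and, added after seeing the data, the 4 libraries with lower striatal marker sums.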

Additional observations from a re-analysis of the deposited data

How the results depend on the processing

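None of the 10 markers passed under any of the 20 alternatives (*Foxp2* was not tested under the filter of 2 FPKM), and 8 to 9 had a log2 fold change above 0 when each of the 5 libraries was left out in turn. Over 6 libraries this was 7 without control replicate 1 or without control replicate 2, and 8 to 9 without another library. The median log2 fold change of the markers, 0.42 over 5 libraries, ranged from 0.30 to 0.48 with 1 library left out. Over 6 libraries it was 0.23 without HuD KO replicate 1, 0.21 without HuD KO replicate 3 and 0.25 without control replicate 1. The sign of *Foxp2* turned to 0.15 without HuD KO replicate 1. With 1 of the 5 left out it ranged from -0.34 to 0.15. That of *Nxph4* turned to 0.24 without control replicate 3, to 0.23 over 6 libraries without it, and to 0.18 in the 4 libraries of lower striatal level, with a range of -0.55 to 0.24 when 1 of the 5 was left out. *Crym* had -0.0128 over 6 libraries without control replicate 1 and -0.0062 without control replicate 2. Over 5 libraries 4 markers were at an unadjusted limma p under 0.05, as were 3.43% of all genes in either direction. This number moved with the library left out, and so did the share of all genes. Without HuD KO replicate 1 it was 2 (2.14% of genes), and without HuD KO replicate 3 it was 1 (*Tle4*, 2.44%). It was 1 (*Tle4*) without control replicate 1 (2.43% of genes) and 2 without control replicate 2 (5.14%). Without control replicate 3 it was 7 (6.27%). In other lists 0 genes passed, except 1 (*Ttr*) without control replicate 3. The causes were not tested.

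The replicate numbers were not used as pairs. Deviations of same-numbered libraries correlated at -0.12, 0.18 and 0.04. With the replicate number as a block 0 markers passed, and their median was 0.36 over 5 libraries, where control replicate 2 has no partner and adds nothing, and 0.29 over 6. All genes passing numbered 3 with either block, and 2 to 11 with 1 of the 5 libraries left out, against 6. With 2 HuD KO libraries in the main comparison and depth unknown, an interval as wide as that of *Crym* or *Nxph4* allows differences of either sign.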
